A study of Mus musculus with 10 samples.

Results

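Of the 5 tumors in which Wls had been deleted from the intestinal epithelium, 2 contained abundant transcripts of Krt5, the basal keratin of stratified epithelia, and 3 contained almost none. These 2 Villin-WlscKO tumors (tumors 2 and 3, called Krt5-rich here) are compared below with the other 3 (tumors 1, 4 and 5, called Krt5-poor). The tumors of each side were chosen by their Krt5 values, with more than 100 FPKM on one side and less than 1 FPKM on the other (FPKM, fragments per kilobase of transcript scaled to the reads mapped, is a level per transcript length). Krt5 stood at 469.5 and 668.8 FPKM in Krt5-rich tumors 2 and 3, and at 0.0992, 0.315 and 0.0703 FPKM in Krt5-poor tumors 1, 4 and 5. The lowest value above the upper threshold was thus 469.5 FPKM, the highest below the lower threshold was 0.315 FPKM, and none lay between. Because the split was read from the same libraries and 1 side holds only 2 tumors, everything that follows is a description of these 5 tumors, without a test.

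The series holds 10 macrodissected colon tumors of mice on a C57BL/6 background, all raised by a single dose of the carcinogen azoxymethane (AOM) and 3 cycles of 2% dextran sodium sulfate (DSS), which injures the colonic lining, and collected 120 days after AOM. The 5 Villin-WlscKO tumors carried Villin-Cre ERT2 with Wls flox/flox, and tamoxifen (5 injections of 80 mg/kg, begun 30 days before collection) had removed Wls from cells in which the Villin promoter is active, which are those of the intestinal epithelium. The 5 control tumors were Wls flox/flox without this deletion, and by the study's general statement on controls they received no tamoxifen. Mice entered the protocol at 6 to 10 weeks of age. Stroma, vessels and immune cells were not removed from the pieces, the Cre does not act in them, and the number of mice behind the tumors is not given in the sources used here, so n counts tumors. Each piece was measured once by mRNA sequencing, and its depth is unknown because FPKM keeps no read number.

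Stratified squamous epithelium lines the skin, the esophagus and the anal canal. Its basal layer divides, is held to the matrix by hemidesmosomes and expresses the keratins Krt5 and Krt14 under the transcription factor p63 (Trp63). Cells that move upward change to other keratins and build a tough envelope with the help of transglutaminases, while the colon normally holds a simple epithelium with the keratins Krt8, Krt18 and Krt20, absorptive colonocytes and mucus-secreting goblet cells. The 2 tissues meet at the anorectal junction, where glands also open. Wls carries Wnt proteins to the cell surface, and Porcn attaches the lipid that they need before they can leave the cell.

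Several sequences are printed first, for a few of the genes that differed between the tumors. These are Krt5 and the 4 neighboring Tmprss11 genes (membrane-anchored serine proteases of stratified and airway epithelia), all higher in the Krt5-rich tumors. Ltf, Wnt4 and Olfm4, the other marker genes by which the split was first described, follow. Each sequence is the 150 bases before the RefSeq transcription start, 5′ to 3′ on the gene's strand, from GRCm38.p6. Capitals mark a match, on either strand, to the half-site bound by the p53 family (p53, p63 and p73) or, in Tmprss11d at 39 bases before the start, to TGANTCA, the AP-1 motif. No 2 of the marked matches overlapped.
Krt5 (chr15:101712906-101713055, minus strand): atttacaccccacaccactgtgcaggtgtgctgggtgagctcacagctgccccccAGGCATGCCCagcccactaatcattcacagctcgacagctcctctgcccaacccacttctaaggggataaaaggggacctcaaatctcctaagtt
Tmprss11a (chr5:86468991-86469140, minus strand): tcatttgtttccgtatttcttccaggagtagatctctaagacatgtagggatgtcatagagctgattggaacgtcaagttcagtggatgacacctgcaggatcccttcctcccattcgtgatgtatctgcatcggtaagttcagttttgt
Tmprss11b (chr5:86676299-86676448, minus strand): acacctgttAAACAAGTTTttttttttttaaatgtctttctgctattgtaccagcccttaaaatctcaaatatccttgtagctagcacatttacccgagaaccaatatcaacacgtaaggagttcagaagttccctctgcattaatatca
Tmprss11d (chr5:86373388-86373537, minus strand): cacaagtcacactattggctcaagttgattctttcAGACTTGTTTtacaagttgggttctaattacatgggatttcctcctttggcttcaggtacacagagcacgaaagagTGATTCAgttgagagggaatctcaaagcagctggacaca
Tmprss11g (chr5:86518601-86518750, minus strand): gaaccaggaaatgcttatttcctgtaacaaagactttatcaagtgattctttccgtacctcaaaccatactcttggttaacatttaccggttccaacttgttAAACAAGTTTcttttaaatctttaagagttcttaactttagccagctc
Ltf (chr9:111019142-111019291, plus strand): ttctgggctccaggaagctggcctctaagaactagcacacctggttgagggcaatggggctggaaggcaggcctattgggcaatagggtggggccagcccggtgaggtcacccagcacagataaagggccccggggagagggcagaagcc
Wnt4 (chr4:137277485-137277634, plus strand): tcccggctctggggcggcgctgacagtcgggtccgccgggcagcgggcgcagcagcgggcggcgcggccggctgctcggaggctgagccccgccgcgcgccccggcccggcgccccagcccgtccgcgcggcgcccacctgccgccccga
Olfm4 (chr14:80000152-80000301, plus strand): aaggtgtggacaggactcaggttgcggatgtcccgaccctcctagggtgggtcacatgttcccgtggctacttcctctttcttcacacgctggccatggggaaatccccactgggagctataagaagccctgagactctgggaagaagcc
The half-site began 95 bases before the start in Krt5, 141 in Tmprss11b, 115 in Tmprss11d and 48 in Tmprss11g, and the same 10 letters were matched in Tmprss11b and Tmprss11g. Windows of this length held a half-site in 4.01% of all 32851 mouse promoters, in 3.29% of those of the genes compared and in 5.31% of the 320 promoters of genes called higher. TGANTCA was found in 4.24%, 3.30% and 8.44% of the same sets, and TATAAA, the TATA box, in 7.57%, 4.18% and 7.81%. These are matches of letters, and no binding was measured.

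Krt5 was not alone. Among 16599 genes with a mean of at least 0.5 FPKM over the 5 Villin-WlscKO tumors, 479 were called higher in the Krt5-rich tumors and 81 lower. A gene was called when both Krt5-rich tumors lay beyond all 3 Krt5-poor tumors and the difference of mean log2(FPKM + 1) was at least 1. The calls are 2.89% of the genes upward and 0.488% downward. Without a minimum size, 16.3% of the genes lay apart upward and 12.1% downward. These shares are the background for the counts of every list below. The median difference over all genes was 0.0080, and 102 genes called higher and 26 called lower differed by at least 2. Correlations of log2(FPKM + 1) across these genes, which are not independent replicates, were 0.962 between the Krt5-rich tumors, 0.969 to 0.970 among the 3 Krt5-poor pairs and 0.942 to 0.955 for the 6 pairs across the split. Leaving out 1 tumor loosens the no-overlap rule, and both counts rose. The count of genes called lower was 158 without tumor 1, 123 without tumor 2, 271 without tumor 3, 122 without tumor 4 and 121 without tumor 5. The count of genes called higher lay between 484 and 690. Of the 81 genes called lower, 61.7% kept their call without tumor 2 and 88.9% to 93.8% without any other single tumor.

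**Figure D1:**
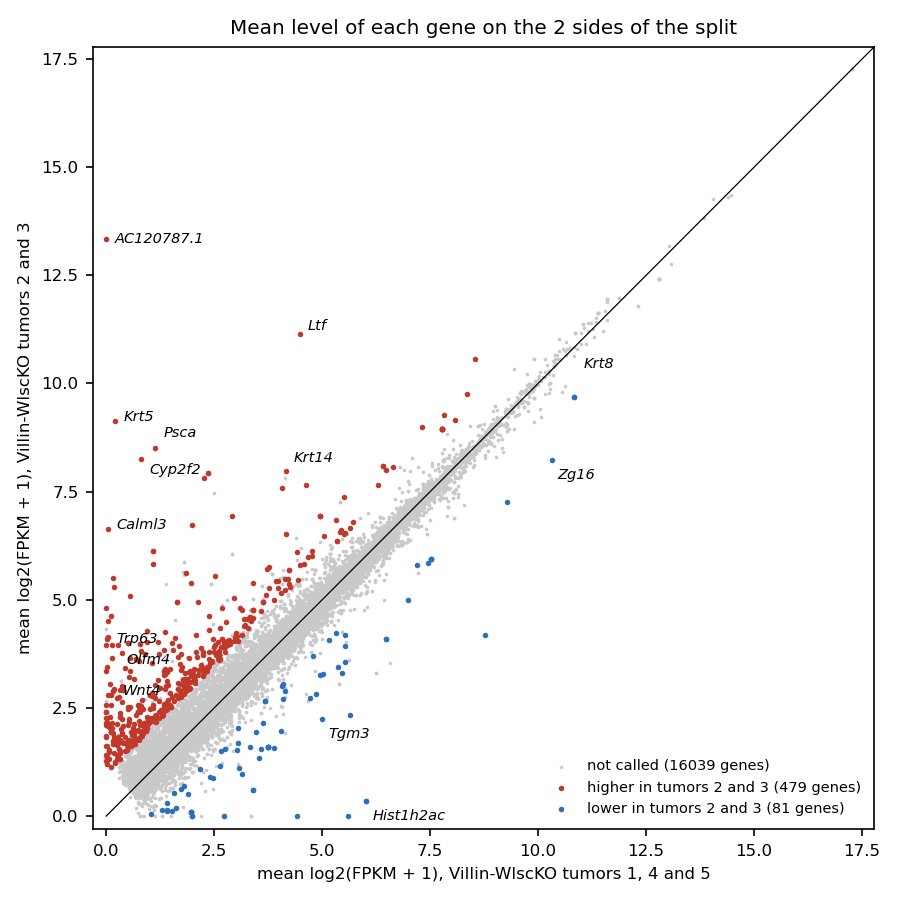
Mean log2(FPKM + 1) of each of the 16599 genes in Krt5-poor Villin-WlscKO tumors 1, 4 and 5 (x axis) against Krt5-rich tumors 2 and 3 (y axis), 1 point per gene, with the diagonal of equal levels. Of the 479 red genes 102 differ by at least 2, and of the 81 blue ones 26 do, and AC120787.1, Krt5, Psca, Cyp2f2, Calml3 and Ltf stand farthest above the diagonal.

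Basal layer genes are given first. All 19 listed basal squamous genes were compared, and apart from Krt5, which split the tumors, 9 of the other 18 were called higher and 0 lower, with a median difference of 0.93. Of these, Trp63 and Dsc3 averaged below 0.5 FPKM in the Krt5-poor tumors and passed the filter only through the Krt5-rich tumors. The count and the median therefore partly follow from the filter. Trp63, the transcription factor of the basal layer, was at 16.3 and 17.0 FPKM in Krt5-rich tumors 2 and 3 and at 0.0132, 0.0649 and 0 FPKM in Krt5-poor tumors 1, 4 and 5. It reached at most 0.0361 FPKM in the 5 control tumors, so the gene was detected above traces in the Krt5-rich pair only. The difference was 4.10 ± 0.04 on the log2(FPKM + 1) scale (here and below ± the standard error from the spread within the sides, 2 and 3 tumors). Krt14, the partner of Krt5 in basal filaments, had 261.8 and 243.3 FPKM against 38.6, 15.2 and 7.76 FPKM (difference 3.83 ± 0.82). Unlike Krt5 it was present in every tumor, controls included, where it ranged from 15.7 to 113.4 FPKM. Krt15, a keratin of resting basal cells, was at 34.4 and 67.7 FPKM against 4.61, 1.60 and 2.15 FPKM. One control tumor, with 34.6 FPKM, matched the lower of the Krt5-rich tumors.

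Adhesion genes of stratified cells moved with the keratins. Col17a1, the hemidesmosomal collagen, stood at 17.7 and 19.3 FPKM against 1.47, 0.752 and 0.668 FPKM (3.34 ± 0.23). The desmosomal cadherin Dsg3 had 15.5 and 17.3 FPKM against 3.01, 2.22 and 1.10 FPKM, and its relative Dsc3 differed by 2.27 ± 0.20. Pkp1, a desmosomal plaque protein, was at 51.3 and 58.7 FPKM against 19.99, 22.6 and 21.5 FPKM, and Fat2, a basal protocadherin, differed by 1.67 ± 0.15. All of these lay apart without overlap. In the list of 17 compared desmosome and hemidesmosome genes, only Dsg3, Dsc3, Pkp1 and Col17a1 were called, and the median difference was 0.23.

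The layers above were represented as well. Of 38 suprabasal squamous genes on the list, 28 had values among the deposited FPKM and were compared. Of these, 18 were called higher and 1 lower (median 1.22). Calml3, Krt6b, Spink5 and Krtdap averaged below 0.5 FPKM in the Krt5-poor tumors and passed the filter only through the Krt5-rich tumors. This count and median therefore partly follow from the filter. Calml3, a calmodulin-like protein of stratified epithelia, had 74.3 and 131.9 FPKM in Krt5-rich tumors 2 and 3, 0.105 FPKM in Krt5-poor tumor 1 and 0 in tumors 4 and 5 (6.60 ± 0.31). Krt6b, a keratin of activated and mucosal squamous cells, was at 50.3 and 39.7 FPKM against 0.132, 0.113 and 0.105 FPKM (5.36 ± 0.12). Neither gene exceeded 0.328 FPKM in a control tumor. Spink5, which inhibits the proteases that release surface cells, stood at 13.2 and 19.4 FPKM against 0, 0.0351 and 0.0227 FPKM. Lypd3, a surface protein of suprabasal cells, had 28.5 and 37.8 FPKM against 0.597, 0.837 and 0.0708 FPKM. Sprr2d, an envelope precursor, differed by 3.43 ± 0.36 and Cnfn, cornifelin, by 2.81 ± 0.49.

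Several keratins could not be read singly. Krt4 and Krt6a carried identical values in all 10 tumors, 200.1 and 294.9 FPKM in the Krt5-rich tumors against 6.47, 5.57 and 1.69 FPKM, so the difference of 5.58 ± 0.63 belongs to both or either. Krt13, Krt17 and Krt19 likewise shared one series of values, 3498 and 4525 FPKM against 3542, 2400 and 3553 FPKM. As Krt19 is a keratin of simple epithelium, nothing can be said of Krt13 or Krt17 from this entry, and it was not called. Without this entry and without Krt5, which split the tumors, the other 17 basal genes summed to 1260 and 1280 FPKM in the Krt5-rich tumors, to 693 to 1016 FPKM in the Krt5-poor tumors and to 594 to 856 FPKM in controls.

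Genes of cornified skin, the driest form of this tissue, could be compared only in part. Of 24 genes listed for cornified skin, 7 had values among the deposited FPKM, and nothing can be said of the others. All 7 were compared and 2 called higher, both keratins. Krt1 and Lor passed the filter only through the Krt5-rich tumors. Krt1 was at 1.25 and 4.65 FPKM and at 0 in the 3 Krt5-poor tumors, and Krt10 at 3.69 and 18.5 FPKM against 1.94, 1.48 and 1.25 FPKM. Both were several times higher in tumor 3 than in tumor 2, as was Krtdap, a protein of differentiating keratinocytes, with 5.20 FPKM in tumor 2, 37.2 FPKM in tumor 3 and 0 in the other 8 tumors. Lor, the main envelope protein of skin, stood at 1.04 and 0.933 FPKM against 0.471, 0.227 and 0.339 FPKM. It lay apart on the 2 sides but was not called (0.57 ± 0.10), and the controls, at 0.519 to 2.36 FPKM, overlapped the Krt5-rich tumors and lay above all Krt5-poor ones. The 5 compared genes of hair follicle and sebaceous gland included 0 calls.

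Tgm3, a transglutaminase that cross-links envelope proteins, was the exception among the suprabasal genes. It had 1.30 and 8.70 FPKM in Krt5-rich tumors 2 and 3 and 26.4, 31.0 and 35.7 FPKM in Krt5-poor tumors 1, 4 and 5 (-2.75 ± 0.79). Tgm1, the keratinocyte transglutaminase, was called higher (2.24 ± 0.63).

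Transcription factors of squamous tissue followed Trp63 in part. Of 16 compared, 7 were called higher and 0 lower (median 0.80). Trp63, Sox2, Sox15 and Tfap2a averaged below 0.5 FPKM in the Krt5-poor tumors. They passed the filter only through the Krt5-rich tumors, so this count and median partly follow from the filter. Sox2, a factor of foregut and squamous progenitors, had 5.75 and 7.47 FPKM against 0.271, 0.233 and 0.264 FPKM (2.59 ± 0.12). Sox15, its relative, stood at 4.97 and 4.82 FPKM against 0.118, 0 and 0.145 FPKM. Pitx1, a homeobox gene of hindlimb and oral epithelium that shares its values with Gm28760, was at 25.9 and 34.8 FPKM against 1.99, 2.68 and 1.76 FPKM (3.31 ± 0.22). Barx2, Tfap2a and Zfp750 completed the called genes with differences of 2.84, 1.28 and 1.15. Grhl3, which drives barrier formation, was not called at 0.92 ± 0.29, and Klf5, active in both simple and stratified epithelia, stood at 113.5 and 117.9 FPKM against 122.2, 131.8 and 130.8 FPKM.

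**Figure D2:**
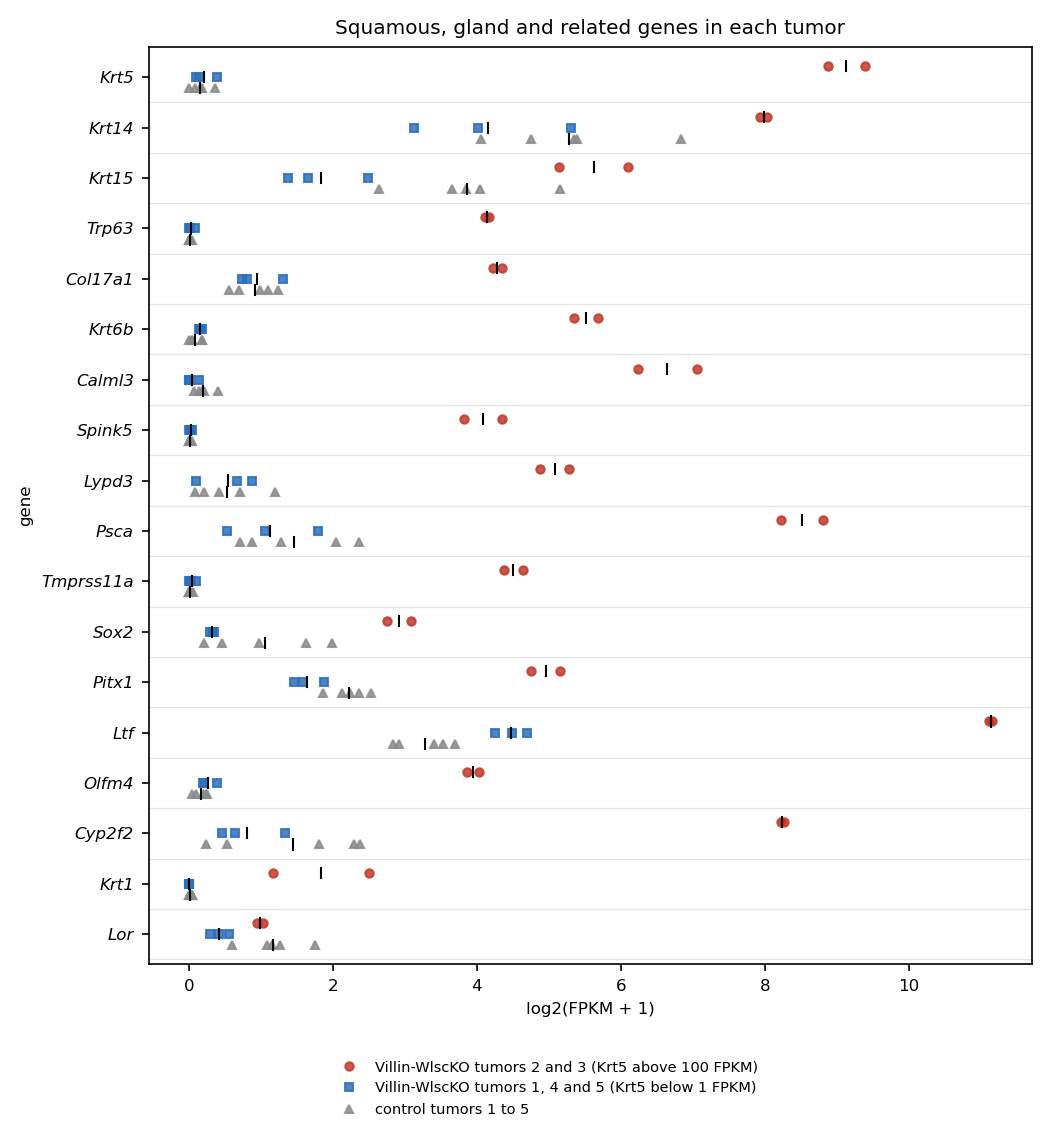
Level of 18 genes as log2(FPKM + 1) in each tumor, with red circles for Krt5-rich tumors 2 and 3, blue squares for Krt5-poor tumors 1, 4 and 5, gray triangles for the 5 control tumors and black ticks for the mean of each set. Krt5, by which the tumors were split, Trp63, Krt6b, Calml3, Spink5 and Tmprss11a lay near 0 in all 8 tumors outside the Krt5-rich pair, whereas Krt14, Krt15 and Lor were present in controls.

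Of 25 serine proteases and inhibitors on the list, 10 had values among the deposited FPKM and were compared. Of these 10, 7 were called higher and 0 lower. Their median, 2.88, was the highest of all lists. Tmprss11a, Tmprss11d, Tmprss11g, Spink5 and Serpinb2 averaged below 0.5 FPKM in the Krt5-poor tumors. They passed the filter only through the Krt5-rich tumors, so the count and the median of this list partly follow from the filter. Tmprss11a was at 19.7 and 24.0 FPKM in Krt5-rich tumors 2 and 3, at 0.0679 and 0.0226 FPKM in Krt5-poor tumors 1 and 4 and at 0 in tumor 5 (4.47 ± 0.11). Tmprss11d, Tmprss11g and Tmprss11b differed by 3.51, 3.40 and 3.81, with both Krt5-rich tumors between 11.5 and 16.6 FPKM for all 3 genes. Prss27, a channel-activating protease also called marapsin, had 39.9 and 52.4 FPKM against 4.60, 5.06 and 4.56 FPKM. Serpinb2, an inhibitor of plasminogen activators whose values are those of Serpinb10 too, differed by 2.73 ± 0.13.

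Genes called higher lay together in places. Among 2079 windows of 1 Mb with a compared gene (GENCODE M21 on GRCm38, identical entries counted once), 6 held at least 4 of them. Chromosome 15 from 101000001 to 102000000, a keratin cluster, held 6 of 14 compared genes (Acvrl1, Krt80, Krt6b, Krt5, Krt1 and Krt4), and chromosome 15 from 74000001 to 75000000 held 5 of 16 (Gm26117, Psca, Slurp1, Lypd2 and Ly6d). Apart from Gm26117 the latter encode small lipid-anchored or secreted proteins of the Ly6 family. Psca, prostate stem cell antigen, was the most abundant of them after Ly6d, with 297.8 and 445.5 FPKM against 2.46, 1.09 and 0.447 FPKM (7.38 ± 0.52). Ly6d had 538.2 and 602.3 FPKM but was also high in the Krt5-poor tumors, at 305.3, 310.4 and 209.8 FPKM. Chromosome 5 from 86000001 to 87000000 held the 4 Tmprss11 genes among 8 compared.

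Ltf and Olfm4 encode secreted proteins of glands, mucosae and neutrophil granules. Ltf, lactoferrin, which binds iron, had 2278 and 2226 FPKM in Krt5-rich tumors 2 and 3 and 21.4, 24.9 and 18.0 FPKM in Krt5-poor tumors 1, 4 and 5, a difference of 6.66 ± 0.17. The mean level was 104.9 times as high on the Krt5-rich side, and all 3 Krt5-poor tumors still exceeded the highest control tumor, at 12.0 FPKM. Olfm4, olfactomedin 4, a glycoprotein that marks stem cells in human intestine, was at 15.3 and 13.6 FPKM against 0.159, 0.148 and 0.316 FPKM (3.68 ± 0.10). The controls held 0.0368 to 0.197 FPKM, so that the Krt5-poor tumors and the controls overlapped for Olfm4. In bulk tissue, fewer cells of a type and less RNA per cell cannot be told apart, for these and for all other genes.

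Among 24 compared genes of gland secretion and antimicrobial defense, Wfdc2 and Reg3g were the other 2 called higher, 0 were called lower and the median was 0.14. Wfdc2, a secreted protease inhibitor of glands, stood at 574.0 and 445.8 FPKM against 239.6, 93.9 and 173.5 FPKM, and Reg3g, a bactericidal lectin, at 661.0 and 1133 FPKM against 448.0, 548.5 and 143.4 FPKM. Lcn2, lipocalin 2, ran the other way with 199.9 and 106.1 FPKM against 269.0, 689.3 and 163.3 FPKM and overlapped. Pigr, the transporter of secretory antibody, and Slpi, an antiprotease, overlapped as well.

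Neutrophil genes are given beside Ltf because neutrophils store lactoferrin. Of 15 compared, 3 were called higher, namely Ltf itself, Csf3r (1.00 ± 0.09, with 0.93 to 0.99 and no call under the 3 rescalings tried) and Il1r2 (1.13 ± 0.37), 0 were lower and the median was 0.50. Ly6g, the defining surface marker, had 136.6 and 257.3 FPKM against 177.8, 112.3 and 161.3 FPKM, and Cxcr2, a chemokine receptor, 5.47 and 3.35 FPKM against 2.62, 2.63 and 2.41 FPKM. Summed without Ltf, the 14 other genes came to 1146 and 1488 FPKM in the Krt5-rich tumors and to 774 to 1565 FPKM in the Krt5-poor ones. The overlap came from Lcn2 in tumor 4: without Lcn2 too, the remaining 13 genes came to 1040 and 1288 FPKM against 611 to 876 FPKM and lay apart. Of the 15 genes, 6 lay apart upward at any size, against 16.3% of all genes. The 3 calls, Ltf among them, were 20% of the list, against 2.89% of all genes. The part of neutrophils in the Ltf difference was not tested.

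The remaining genes with the greatest differences had varied roles. AC120787.1, a name with no entry in the annotation used here, was listed at 9789 and 11146 FPKM in the Krt5-rich tumors and at 0 in all others except control tumor 5 with 54.3 FPKM. Cyp2f2, a cytochrome P450 abundant in airway secretory cells (chromosome 7, 27119909 to 27133660), was at 297.8 and 306.4 FPKM against 0.563, 0.380 and 1.52 FPKM (7.43 ± 0.34). Ppbp, a platelet chemokine precursor, had 223.0 and 225.0 FPKM against 7.39, 5.79 and 0.972 FPKM. Aqp3, a glycerol and water channel of stratified epithelium, stood at 30.1 and 49.1 FPKM against 0, 0.314 and 0.126 FPKM. Calcb, the neuropeptide CGRP-beta, and Lgals7, a galectin of stratified epithelia, differed by 4.74 ± 0.26 and 4.73 ± 0.45. Besides these proteins, 2 small RNAs reached the 15 greatest: Gm23245, at 28.6 and 26.0 FPKM against 0 in the Krt5-poor tumors but up to 53.05 FPKM in controls, and Gm22643, whose values equal those of Maml2 and were 1376 FPKM in tumor 2 and 2.59 FPKM in tumor 3. Of the 479 genes called higher, 379 were protein-coding in the annotation.

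Of 52 compared genes for Wnt ligands, receptors, secretion, targets and feedback, 7 (13.5%) were called higher, against 2.89% of all genes, and 0 lower. The 7 include Wls itself and Wnt4, a marker by which the split was first described, so this share is not independent of the split. Wls, the deleted gene, was at 11.6 and 11.7 FPKM in Krt5-rich tumors 2 and 3 and at 2.81, 3.61 and 2.03 FPKM in Krt5-poor tumors 1, 4 and 5, with 61.3 to 79.9 FPKM in controls. Every Villin-WlscKO tumor was thus below every control, and the Krt5-rich mean was 4.15 times that of the Krt5-poor tumors. Porcn stood at 6.29 and 5.33 FPKM against 2.03, 1.95 and 1.63 FPKM (1.24 ± 0.11), and its controls, at 2.49 to 4.20 FPKM, lay between the sides. Of 20 compared genes for Wnt receptors and secretion these 2 were called higher and 0 lower (median 0.07).

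Of 10 compared ligands 3 were called higher and 0 lower, with a median of 0.43. Among the called ligands, Wnt4 and Wnt7b averaged below 0.5 FPKM in the Krt5-poor tumors and passed the filter only through the Krt5-rich tumors. Wnt4, a ligand of gland and reproductive tract development, had 5.22 and 8.40 FPKM against 0.0506, 0.0920 and 0.299 FPKM (2.74 ± 0.25). The controls had 0.525 to 1.28 FPKM, so the Krt5-rich tumors were above and the Krt5-poor tumors below all of them. Wnt7b, a ligand of stratified and lung epithelium, was at 2.92 and 2.79 FPKM against 0.517, 0.642 and 0.335 FPKM. Its controls, at 0.787 to 3.54 FPKM, spanned the Krt5-rich tumors and lay above all Krt5-poor ones. Wnt16, of skin and bone, was at 5.76 and 10.3 FPKM against 3.33, 3.24 and 2.67 FPKM, with 0.494 to 4.72 FPKM in controls. Wnt7a, at 1.62 to 4.95 FPKM in controls, fell under the filter. Wnt6 and Wnt10a, the most abundant ligands in controls, were not called: Wnt6 had 21.6 and 20.2 FPKM against 34.4, 17.5 and 32.5 FPKM, and Wnt10a differed by 0.41 ± 0.43.

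Target genes of the pathway were mostly not called. Of 22 compared targets and feedback genes, 2 were called higher, the secreted Wnt antagonists Sfrp1 (1.18 ± 0.30) and Sfrp2 (1.28 ± 0.58), and 0 lower, with a median of -0.02. Axin2, a feedback inhibitor, had 96.3 and 78.6 FPKM against 108.0, 100.2 and 99.4 FPKM, and Notum, which removes the lipid from Wnts, 178.3 and 170.7 FPKM against 221.7, 205.5 and 193.3 FPKM. Both lay apart by less than the minimum size, with all 5 tumors below the lowest control. Lef1, a transcription factor of the pathway, had 3.30 and 1.81 FPKM against 7.89, 4.68 and 3.48 FPKM, with a narrow gap between tumors 2 and 5, and its difference of -0.81 ± 0.44 was not called. Stem cell genes were alike in this: of 16 compared only Olfm4 was called, while Lgr5 had 30.3 and 15.3 FPKM against 32.1, 39.4 and 19.5 FPKM and Ascl2 30.6 and 16.5 FPKM against 20.1, 24.6 and 19.4 FPKM.

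Notch signaling passes between neighboring cells and takes part in both squamous and goblet cell differentiation. Of 11 compared genes 3 were called higher and 0 lower (median 0.28). The receptor Notch3 stood at 4.00 and 4.66 FPKM against 0.556, 1.24 and 0.319 FPKM (1.68 ± 0.30). The ligands Jag1, at 9.15 and 11.5 FPKM against 3.38, 4.03 and 3.33 FPKM, and Jag2, at 10.2 and 9.80 FPKM against 4.42, 4.12 and 3.65 FPKM, also lay apart. The receptor Notch1 overlapped with 18.9 and 21.4 FPKM against 19.2, 16.6 and 24.3 FPKM, and the targets Hes1 and Nrarp differed by 0.28 and 0.77 without being called.

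**Figure D3:**
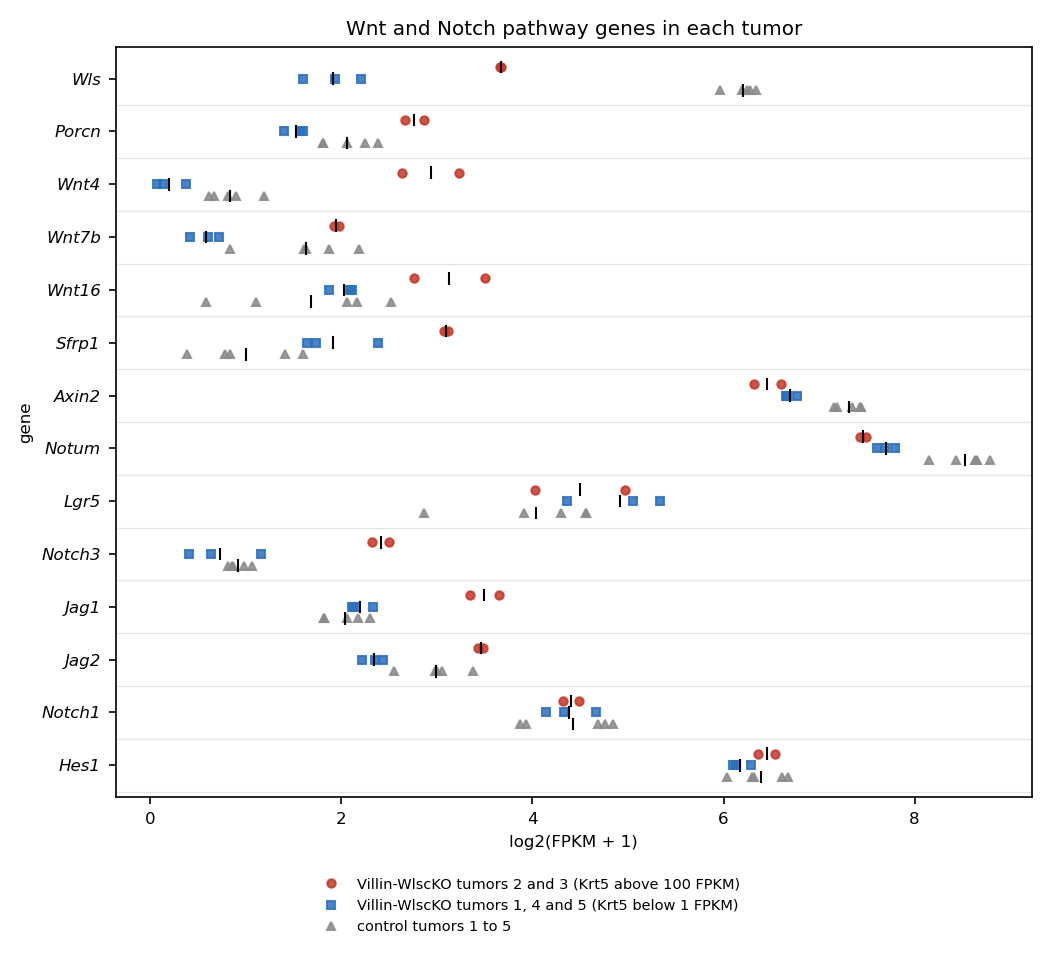
Level of 14 Wnt and Notch pathway genes as log2(FPKM + 1) in each tumor, with red circles for Krt5-rich tumors 2 and 3, blue squares for Krt5-poor tumors 1, 4 and 5, gray triangles for the 5 control tumors and black ticks for means. Wls separated all 3 sets with the controls highest, Wnt4, Porcn and Jag2 had the controls between the sides, and the red and blue points of Lgr5 and Notch1 overlapped.

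The genes called lower included absorptive and mucus genes of the colon. Of 23 colonocyte genes 5 (21.7%) were called lower and 0 higher, with a median of -0.59. Of 17 goblet cell genes 2 (11.8%) were called lower and 0 higher (median -0.36). Over all genes 0.488% were called lower. Zg16, a lectin of colonic mucus, had 169.1 and 523.9 FPKM in Krt5-rich tumors 2 and 3 and 1217, 1219 and 1378 FPKM in Krt5-poor tumors 1, 4 and 5 (-2.09 ± 0.61). Clca1, a protease of mucus, was at 47.9 and 66.7 FPKM against 158.8, 201.3 and 165.9 FPKM (-1.61 ± 0.22). Muc2, the gel-forming mucin, was lower in both Krt5-rich tumors, with 248.2 and 399.3 FPKM against 545.2, 461.5 and 548.6 FPKM, but by less than the minimum size. Tff3, the trefoil peptide of goblet cells, lay likewise at 777.0 and 1246 FPKM against 1425, 1291 and 2085 FPKM. Muc2 in the controls, at 51.0 to 168.8 FPKM, lay below both sides. Both Krt5-rich tumors exceeded all 5 controls for 11 of the 17 goblet cell genes, Zg16 and Clca1 not among them. All 3 Krt5-poor tumors did so for 14.

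Among the colonocyte genes, Car4, a carbonic anhydrase of the brush border, stood at 4.76 and 19.9 FPKM against 25.8, 54.8 and 46.0 FPKM (-1.91 ± 0.81). Aqp8, a water channel, had 1.22 and 5.83 FPKM against 6.50, 18.3 and 30.7 FPKM, and Fabp2, a fatty acid carrier, 0.625 and 4.62 FPKM against 5.98, 7.68 and 16.0 FPKM. Slc9a3, the sodium-proton exchanger, was nearly the same in both Krt5-rich tumors, at 17.8 and 17.7 FPKM against 34.6, 47.2 and 37.0 FPKM. Cyp2c55 differed by -1.29 ± 0.64. Slc26a3, the chloride exchanger, was not called because tumor 3, at 11.2 FPKM, lay within the range of the Krt5-poor tumors while tumor 2, at 1.01 FPKM, lay below it, and Car1, a further carbonic anhydrase, overlapped.

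The 2 Krt5-rich tumors were not equal on this side. Of the 23 colonocyte genes 17 were below all Krt5-poor tumors in tumor 2 and 11 in tumor 3, and 6 of the 7 compared enteroendocrine genes were lowest in tumor 2 and 0 in tumor 3. Pyy, a peptide hormone of these cells, was at 3.67 FPKM in tumor 2 and 55.3 FPKM in tumor 3, against 24.4, 31.9 and 122.0 FPKM, and no enteroendocrine gene was called (median -0.62). Of the 81 genes called lower, 59 were lowest in tumor 2, 17 in tumor 3 and 5 were equal in both, and 39 (48.1%) differed by at least 1 on the log2 scale between tumors 2 and 3. For the 479 genes called higher, 36 (7.52%) did so, and tumor 3 was above tumor 2 in 303.

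**Figure D4:**
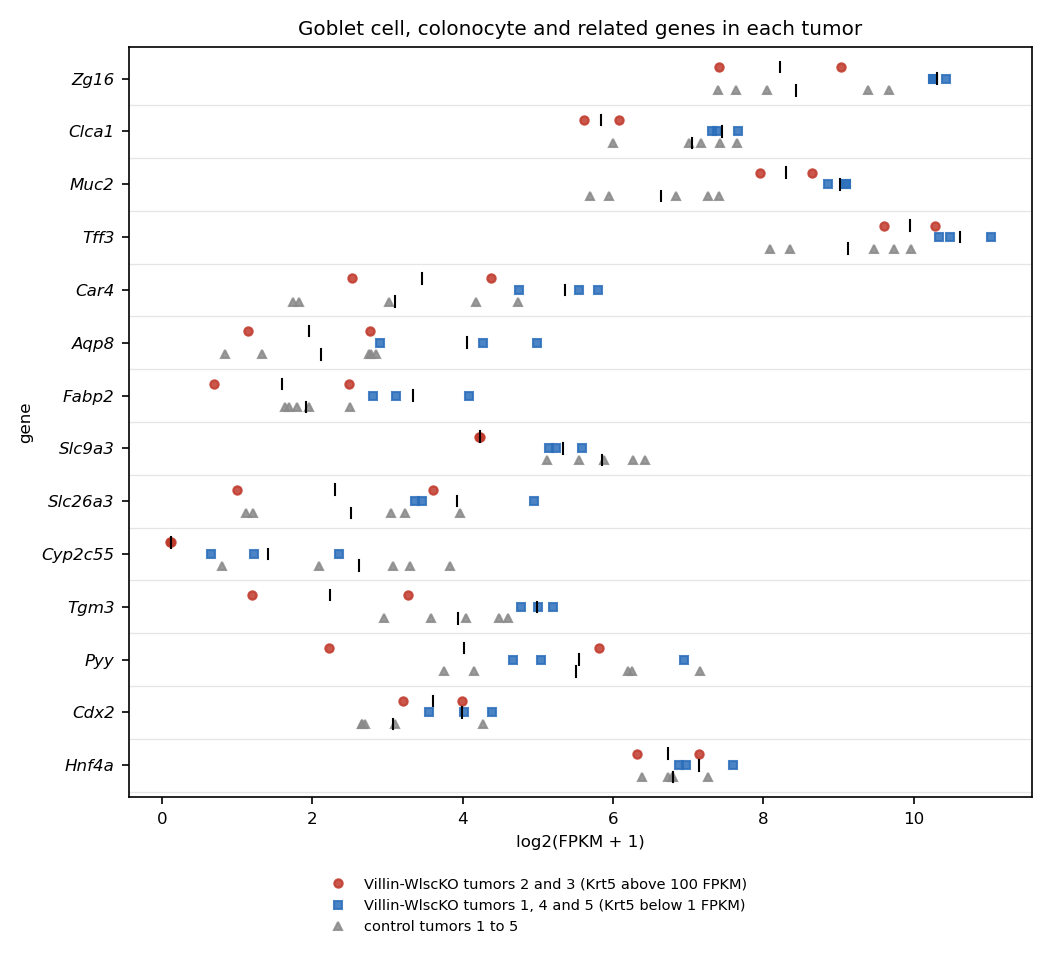
Level of 14 goblet cell, colonocyte and related genes as log2(FPKM + 1) in each tumor, with red circles for Krt5-rich tumors 2 and 3, blue squares for Krt5-poor tumors 1, 4 and 5, gray triangles for the 5 control tumors and black ticks for means. The red points of Zg16, Car4 and Aqp8 lie below the blue ones and within the range of the gray ones, and tumor 2 is the lower of the red pair for most genes shown.

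Genes for the regional identity of the colon and for simple epithelium were present on both sides. Of 21 hindgut transcription factors and 15 simple epithelial genes 0 were called in either direction, with medians of -0.25 and -0.17. Cdx2, the caudal factor that specifies intestine, was at 8.25 and 14.9 FPKM against 10.8, 15.2 and 19.98 FPKM, and its paralog Cdx1 overlapped too. Hnf4a, a factor of intestinal epithelium, had 79.2 and 139.8 FPKM against 124.5, 116.6 and 192.1 FPKM. Hoxb13, of the distal colon and rectum, lay lower at 61.5 and 89.8 FPKM against 96.2, 101.1 and 122.5 FPKM, short of the minimum size. Krt8 and Epcam, markers of simple epithelium, were abundant in all 5 tumors. Krt8 stood at 1629 and 1936 FPKM against 1958, 1591 and 2242 FPKM and overlapped, while Epcam, at 911.3 and 951.9 FPKM against 1321, 1250 and 1167 FPKM, was lower in both Krt5-rich tumors by less than the minimum size (-0.42 ± 0.07). Of the 15 simple epithelial genes 12 had a negative difference. Mki67, a proliferation marker, had 23.5 and 21.8 FPKM against 24.2, 20.5 and 27.8 FPKM, and 0 of 20 proliferation genes were called (median -0.08). Tumor 3 was nonetheless below all Krt5-poor tumors for 17 of the 20, and tumor 2 for 2.

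Stromal and some immune transcripts moved with the split. Of 15 fibroblast genes 5 were called higher and 0 lower (median 0.82), and their sum was 1143 and 1710 FPKM in the Krt5-rich tumors against 802 to 1135 FPKM in the Krt5-poor tumors. Dcn, a matrix proteoglycan, had 231.9 and 174.4 FPKM against 87.2, 96.5 and 56.0 FPKM, and Col1a1, Col1a2, Thy1 and Pdgfrb were the others called, while Col3a1 overlapped. Of 12 endothelial genes Pecam1, Emcn and Eng were called higher and 0 lower (median 0.73), with sums of 81.5 and 93.1 FPKM against 37.7 to 51.9 FPKM. Of 14 macrophage genes C1qa, C1qb and Fcgr1 were called higher and 0 lower (median 0.87), but the sums, 664 and 751 FPKM against 408 to 748 FPKM, overlapped. Of 14 T cell genes Trac alone was called higher and 0 lower (median 0.61). Of these 14 genes 13 had a positive difference and 11 lay apart upward at any size, against 16.3% of all genes. Their sums were 45.8 and 55.7 FPKM against 27.4 to 31.2 FPKM. Control sums were 895 to 1655 FPKM for fibroblast genes and 39.8 to 86.4 FPKM for endothelial genes. They were 451 to 1041 FPKM for macrophage genes and 18.4 to 24.7 FPKM for T cell genes. Both Krt5-rich tumors exceeded all 5 controls for 4 of 15 fibroblast, 1 of 12 endothelial, 2 of 14 macrophage and 11 of 14 T cell genes. Pdgfrb, at 1.01, was not called under any of the 3 rescalings (0.90 to 1.00). Col1a1, Pecam1 and C1qa, which define these cells, were above 0 in all 10 tumors. Whether the share of stroma or immune cells has a part in the squamous or colonic differences was not tested.

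In the other lists at most 2 genes were called. Ighm was the 1 of 10 B and plasma cell genes called higher (median 0.11). Of 20 fetal-like and regeneration genes 2 (10%) were called higher, against 2.89% of all genes, Gja1 among them (median 0.10). Of 27 interferon-gamma response genes 0 were called although 26 had a positive difference (median 0.41). There were 0 calls among 14 genes of the female reproductive tract and steroid response, 4 of the urothelium, 8 of tuft cells, 10 of smooth muscle, 3 of skeletal muscle, 3 of adipocytes, 3 of glia and neurons, 5 of erythrocytes, 6 of the Hedgehog pathway, 10 posterior Hox genes and 12 of the EGF receptor family, whose medians lay between -0.19 and 0.39. Hoxd13, Hoxd11 and Hoxd12 were near 0 in Krt5-poor tumor 4 alone, with 0.286 FPKM of Hoxd13 against 78.2 to 89.3 FPKM in the other 4 Villin-WlscKO tumors.

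**Figure D5:**
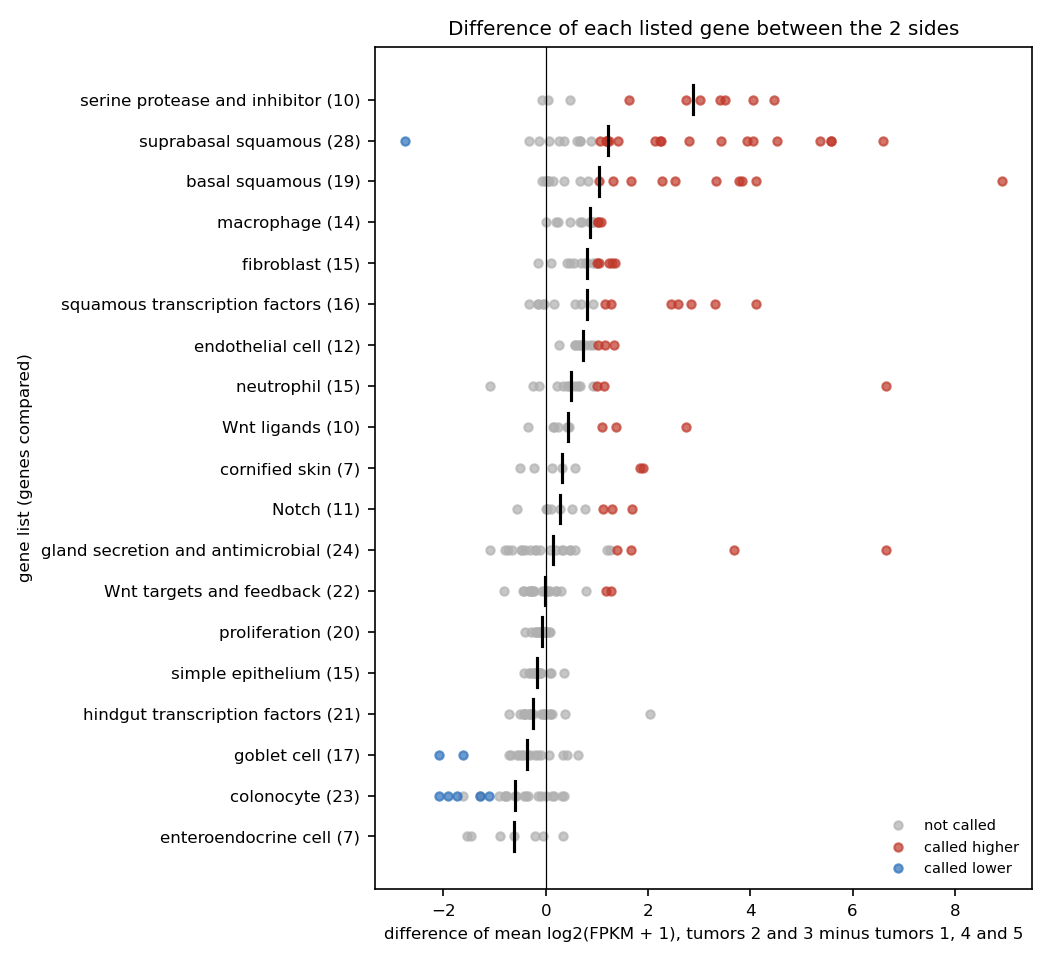
Difference of mean log2(FPKM + 1), Krt5-rich tumors 2 and 3 minus Krt5-poor tumors 1, 4 and 5, for each compared gene of 19 lists, with 1 point per gene colored by call, a black bar at the median of the list and the number of genes compared in parentheses. The medians run from 2.88 for serine proteases and inhibitors to -0.62 for enteroendocrine genes, and the Krt5 point at 8.92 is the readout that split the tumors.

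The 10 genes lowest in the Krt5-rich tumors were mostly short or repeated RNAs, with Tgm3 as the exception. Hist1h2ac, a histone gene that shares its values with Gm24991, was at 1.77e-05 and 0.610 FPKM against 1.75, 274.7 and 362.5 FPKM (-5.68 ± 2.96). Gm26347, a small nuclear RNA of Cajal bodies, was listed at 0 in both Krt5-rich tumors and all 5 controls and at 43.0, 32.3 and 78.2 FPKM in the Krt5-poor ones. Snord23, a nucleolar RNA, had 326.5 FPKM in tumor 2 and 0 in tumor 3. Rps15a-ps8, Gm37116 and Gm7079, which are processed pseudogenes, differed by -4.43, -3.31 and -2.30, AC151286.1, which shares its values with Gm10308, by -2.80, the short coding gene Gm10337 by -2.73 and Gm27605, which shares its values with Gm27898, by -2.40. Of the 81 genes called lower, 28 were not protein-coding or not found in the annotation.

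The control tumors place the 2 sides. For 394 of the 479 genes called higher (82.3%) the control mean lay on the Krt5-poor side of the midpoint between the sides, and for 352 (73.5%) both Krt5-rich tumors exceeded all 5 controls. In 19 genes the Krt5-rich tumors lay above and the Krt5-poor tumors below every control, among them Calcb, Wnt4, Porcn, Jag2, Dapl1, Gpc3, Fat2 and Grhl1. For the genes called lower the controls were divided, with 42 of 81 on the Krt5-poor side and 39 on the Krt5-rich side. Only 16 of the 81 were lower in both Krt5-rich tumors than in all controls, whereas 27 were higher in all 3 Krt5-poor tumors than in all controls. Zg16 was of the latter kind, with 168.0 to 815.4 FPKM in controls. All 5 Villin-WlscKO tumors had 438.9 to 701.4 FPKM of Xist and at most 0.138 FPKM of Eif2s3y, a gene of the Y chromosome, and all 5 controls the reverse (at most 0.420 and at least 30.4 FPKM). Sex therefore did not differ across the split, and sex, tamoxifen and Wls deletion cannot be told apart in any comparison with the controls.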

How the data were processed

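RNA of macrodissected tumors was sequenced from poly(A)-selected, stranded libraries. The authors mapped the reads to GRCm38.p5 with TopHat2 2.1.1 and deposited FPKM per gene name and tumor, made with Cufflinks 2.2.1 and Cuffdiff, after a check with FastQC. Whether strand was used in quantification and which annotation was used are not given in the sources used here, so overlapping and antisense genes are uncertain. All 10 columns were assigned by their labels and 0 were left over. FPKM are not counts: no read number is known and no count test was run. FPKM summed to between 1207680 and 1533880 per tumor. Of 16875 names, 2419 share all values with another name, and such genes cannot be told apart.

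The 5 Villin-WlscKO tumors were split by Krt5 (above 100 against below 1 FPKM). The 276 names with a mean under 0.5 FPKM over the 5 tumors were left out, values were taken as log2(FPKM + 1), with a pseudocount of 1 that understates changes of low genes, and means were subtracted, Krt5-rich minus Krt5-poor. A gene could pass this filter through 1 side alone, so lists can hold members compared only because that side was high. List members without deposited values could not be compared. A gene was called when the sides did not overlap and the difference was at least 1. Standard errors pool the spread within the sides. No test was made, and the calling step was tested on simulated data. The text names the marker genes, the 15 greatest positive and 10 greatest negative differences among called genes, and members of 38 gene lists. Some genes that these rules take in are not reported here. The split, the members and the lists were chosen with earlier results of these data known, so no list is independent support. Positions are from GENCODE M21, which gives 16023 of the names a single position, and promoters from RefSeq (GRCm38.p6), matched by symbol for 262 of the genes called higher. Alternatives covered the pseudocount, scaling, filter, minimum size, identical entries and each tumor left out. Python 3.11.15, numpy 2.4.6, pandas 2.3.3 and matplotlib 3.10.9 were used.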

Additional observations from a re-analysis of the deposited data

Results flagged for a closer look

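Among the genes named in the text, each labelled group of 5 tumors was searched for 1 tumor far from the other 4. Of 278 groups searched 26 were marked. For normally distributed values chance would mark about 1 of 20 groups. FPKM with zeros, and genes named for their difference across the split, need not follow that rate. Many of the genes are related, and no explanation of the marks was tested.

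Control tumor 1 was the high one for several squamous or related genes although its Krt5 was 0.137 FPKM. It had 113.4 FPKM of Krt14 (others at most 41.1), 60.9 FPKM of the shared entry Krt4 and Krt6a (others at most 9.91), 5.74 FPKM of Dsg3 (others at most 2.49), 7.94 FPKM of Lgals7 (others at most 2.31) and 44.5 FPKM of Cbr2, a carbonyl reductase (others at most 16.1). It was also high for Cdx2, at 18.2 FPKM, and Car1, at 606.1 FPKM, and low for Krt80, at 0.503 FPKM.

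Krt5-rich tumor 3 stood apart from the other Villin-WlscKO tumors, tumor 2 included, for the differentiation genes Krtdap (37.2 FPKM), Krt1 (4.65 FPKM) and Krt10 (18.5 FPKM) and for Sfrp2 (6.48 FPKM). Krt5-rich tumor 2 did so for Gm22643 (1376 FPKM). Krt5-poor tumor 4 was apart for Lcn2 (689.3 FPKM), AC151286.1 (85.4 FPKM), Wnt10a (6.70 FPKM, low), Hoxd13 (0.286 FPKM, low) and Hoxd11 (0.336 FPKM, low).

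The other controls marked were tumor 2 for AC151286.1 (38.2 FPKM), tumor 3 for Sox15 (0.262 FPKM, with 0 in the others) and Serpinb2 (0.331 FPKM), tumor 4 for Fcgr1 (4.89 FPKM), and tumor 5 for Lypd2 (1.81 FPKM), AC120787.1 (54.3 FPKM), Defb1 (0.0781 FPKM) and Hist1h2ac (960.3 FPKM). The last value exceeds every Villin-WlscKO tumor for that gene.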

How the results depend on the processing

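Each choice was changed alone. The count of genes called higher, 479, became 826 with a pseudocount of 0.1, 224 with a mean of at least 5 FPKM, 102 with a difference of at least 2 and 2700 without a minimum size, and the count called lower, 81, became 151, 59, 26 and 2001 in the same order. The genes called higher with the control mean on the Krt5-poor side, 394, became 611, 184, 92 and 1675. Counting protein-coding names alone, an alternative added after the data were seen, left 379 higher and 53 lower. With 1 Villin-WlscKO tumor left out there were 484 to 690 higher, 121 to 271 lower and 388 to 582 with controls on the Krt5-poor side. Under the 3 scalings the counts stayed within 1.5 times, and quantile normalization kept 386 (80.6%) of the genes called higher and all 81 called lower. Leaving out tumor 2 kept 50 (61.7%) of the genes called lower and leaving out tumor 3 kept 380 (79.3%) of those called higher, while the other tumors left out singly kept at least 84.3% of either. Of 107 called genes named in the text, Csf3r and Pdgfrb lost their call under all 3 scalings and Acvrl1, C1qa, Col1a1, Eng, Fcgr1 and Snord23 under 1 or 2 of them. The median of all genes moved by at most 0.053 in size under the scalings. No called gene named in the text changed sign. No paired analysis was possible because no test was made and the 2 sides share no replicate number. With 2 and 3 tumors and no read numbers, differences of low genes cannot be given a counting error.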

Other observations

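Most calls lay outside the lists. With identical entries counted once, 349 of 421 genes called higher and 57 of 65 called lower belonged to no list. The genes named here were chosen after their values were seen. Several higher ones act in detoxification and secretion. Cbr2 had 139.3 and 258.4 FPKM in Krt5-rich tumors 2 and 3 and 14.7, 19.4 and 14.1 FPKM in Krt5-poor tumors 1, 4 and 5. Aldh3a1, an aldehyde dehydrogenase of cornea and stomach, stood at 10.4 and 15.1 FPKM against 0.376, 1.34 and 0.965 FPKM. Vnn1, a pantetheinase, was at 18.7 and 12.3 FPKM against 0.957, 0.972 and 0.830 FPKM. Defb1, a beta-defensin, had 8.69 and 9.89 FPKM and was listed at 0 in the Krt5-poor tumors. Car12, a membrane carbonic anhydrase, had 32.0 and 27.7 FPKM against 2.45, 3.16 and 4.76 FPKM. For each of these 5 genes both Krt5-rich tumors also exceeded all 5 controls.

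Developmental genes were among them too. Elf5, an ETS factor of mammary and other glandular epithelium, was at 4.71 and 7.41 FPKM against 0, 0 and 0.0721 FPKM, and Meis1, a homeobox cofactor whose values equal those of Gm37818, at 5.82 and 7.21 FPKM against 0.346, 0.390 and 0.182 FPKM. Gpc3, a surface proteoglycan, had 5.38 and 6.48 FPKM against 0.0708, 0.0350 and 0.117 FPKM. Dapl1, an epithelial differentiation gene, was at 100.9 and 145.8 FPKM against 7.25, 3.50 and 10.7 FPKM. Among the genes called lower, Apob, the scaffold of lipoproteins, had 0.869 and 3.56 FPKM against 12.3, 7.70 and 14.0 FPKM and Hao2, a hydroxyacid oxidase, 0.177 and 2.92 FPKM against 7.11, 6.99 and 8.06 FPKM. For both the lower value was that of tumor 2.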
